A study of Mus musculus with 43 samples.

Results

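Knockout T cells recovered from the liver were compared with knockout T cells recovered from the primary tumour of the same pancreatic cancer model, gene by gene. The comparison rests on 9 libraries, namely the liver libraries IgG replicate 2, IgG replicate 3 and anti-PD-1 replicate 3 and the 3 IgG and 3 anti-PD-1 libraries of the primary tumour, out of 43 samples in the series and 41 libraries with values. They were taken by organ, with treatment as a covariate, and no measured value entered this choice. Liver anti-PD-1 replicate 2 and peritoneal metastases IgG replicate 1 have no values in the series. The study left out 2 samples after a first quality check and does not name them. Quality may therefore have shaped which liver libraries remain. All libraries hold integrated sgRNAs amplified from genomic DNA of OT-I Rosa26-Cas9 CD8+ T cells, which carry 1 T cell receptor against ovalbumin, were transduced with a metabolic sgRNA library and are told from host cells by CD90.1. The cells were given by adoptive cell transfer (ACT) to adult Rosa26-Cas9 mice bearing KPC_OVA tumours, made from 1 mouse pancreatic cancer line grown in the pancreas and expressing ovalbumin, and were sorted 7 days later. The recipients kept their own T cells and also expressed Cas9. From the day of transfer the mice received anti-PD-1 or its IgG control, so IgG and anti-PD-1 libraries differ by their labels only in the antibody. T0 libraries (3) are the transduced cells on the day of transfer. The study describes more mice than libraries, so a library may pool several animals.

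In a pooled knockout screen, the integrated sgRNA serves as a tag of the cells that carry it, so an sgRNA that becomes rarer marks a knockout whose carriers were lost or did not arrive, and 1 that becomes more common marks carriers that expanded or accumulated. The liver traps activated and dying CD8+ T cells in its sinusoids, and glycans on the T cell surface are read there by lectins such as the asialoglycoprotein receptor of hepatocytes. A level below is the mean of log2(signal + 1) over the 5 sgRNAs of a gene, from which the nontargeting median of the same library was subtracted, so 0 is the level of the nontargeting controls. A difference is the level in liver minus the level in primary tumour, from a limma fit with treatment as a covariate, and a gene was called where its p, adjusted by Benjamini-Hochberg over all 2078 genes, did not exceed 0.05. The deposited signals had been batch-corrected between organs, so the differences are those left after a correction that may itself have altered them, and its effect was not tested. The libraries measure how abundant knockout cells were in an organ, not the expression of the gene.

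*C1galt1* knockout cells were more abundant in liver than in primary tumour, and *C1galt1* was the only gene called, which is 0.0481% of the genes tested in that direction, with 0 genes called lower in liver (0%). At an unadjusted p under 0.05, 82 genes (3.95%) were higher and 110 (5.29%) lower in liver. The 3 liver libraries lay above all 6 tumour libraries for 34 genes (1.64%) and below all of them for 50 (2.41%). The median difference over all genes was -0.02, and without centring on the nontargeting sgRNAs it was -0.73, with 3 genes called higher and 302 lower.

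**Figure D1:**
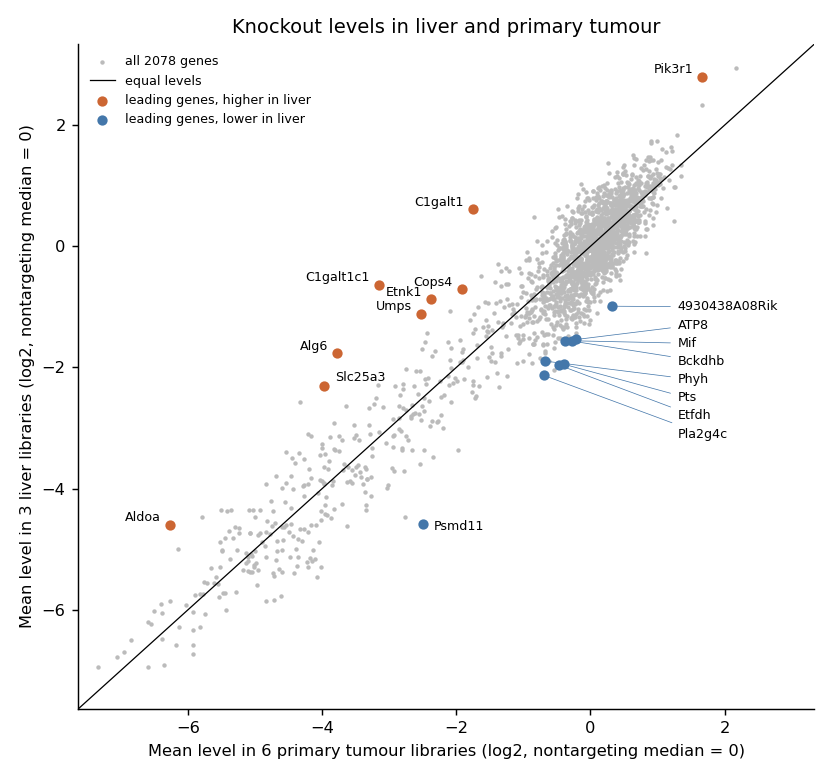
Mean level of each gene in the 6 primary tumour libraries (x axis) and in the 3 liver libraries (y axis), both as log2 with the nontargeting median at 0; each point is 1 gene and the line marks equal levels. Most genes lie along the line from strong depletion to mild enrichment, and *C1galt1* stands above it with mean levels of -1.75 in tumour and 0.61 in liver.

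The liver libraries were less even than the tumour libraries, and all differences given here come from these libraries. How far the spread shaped them was not tested. Where several libraries of a replicate number held exactly the same lowest value of an sgRNA, that value was counted as a shared lowest value. The share of sgRNAs at such a value was 6.17% and 6.64% in the liver IgG libraries and 5.73% in the anti-PD-1 library, against 2.78% to 4.24% in the tumour libraries. The SD of the 250 nontargeting sgRNAs was 2.06, 2.12 and 2.14 on the log2 scale in liver and 1.43 to 1.65 in tumour. Neither measure overlapped between the organs, and each gave p = 0.0238 (two-sided exact permutation test, 3 against 6 libraries, adjusted p = 0.0357 over 3 measures), the smallest p that this design allows. The highest 1% of sgRNAs held 9.55% to 13.9% of the summed signal in liver and 6.36% to 10.4% in tumour, and these ranges overlapped (exact permutation p = 0.0714, adjusted p = 0.0714). In tumour IgG replicate 3, a single sgRNA held 2.80% of the signal. Summed signals were 2018421 to 2804275 in liver and 2275699 to 3392628 in tumour, and the number of reads behind them is unknown. The Spearman correlation over sgRNAs, all from the same sgRNA library, was 0.469 to 0.504 between liver libraries and 0.503 to 0.704 between tumour libraries, so that the ranges overlapped slightly.

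**Figure D2:**
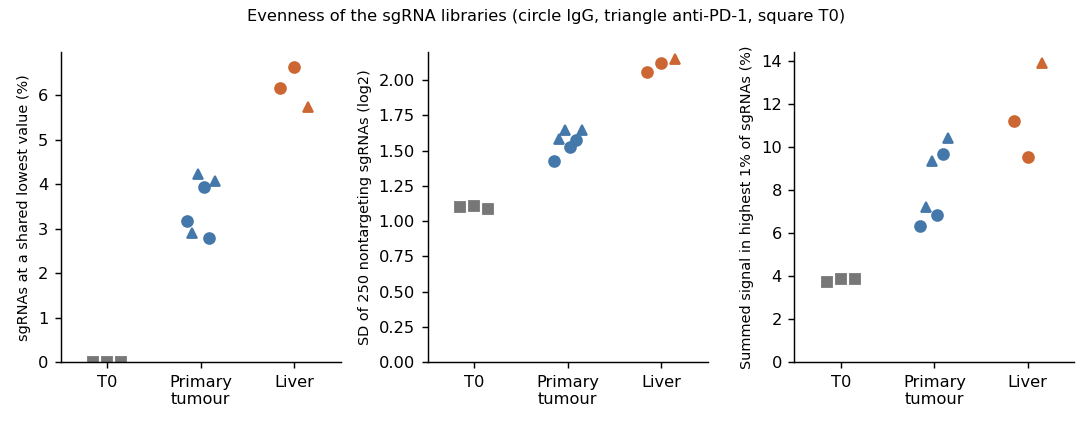
Evenness of the sgRNA libraries in T0, primary tumour and liver: share of sgRNAs at a shared lowest value (left, %), SD of the nontargeting sgRNAs (middle, log2) and share of the summed signal held by the highest 1% of sgRNAs (right, %). Each point is 1 library; the liver points lie above all tumour points in the left and middle panels and overlap them in the right panel.

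The leading sgRNAs of the library labelled liver IgG replicate 2 went against its treatment label in tumour, peritoneal metastases and lung. In spleen they went with the label. Of its highest 104 sgRNAs, which are 1% of those that target a gene, 4 (3.85%) were also among the highest in tumour IgG replicate 2 but 31 (29.8%) in tumour anti-PD-1 replicate 2. The library with the most shared leading sgRNAs was the one titled as peritoneal metastases anti-PD-1 replicate 2, with 74 (71.2%), and that library carries spleen as its tissue label. Liver IgG replicate 2 shared 10 (9.62%) with lung IgG replicate 2 and 18 (17.3%) with lung anti-PD-1 replicate 2. In spleen it shared 9 (8.65%) with IgG replicate 2 and 3 (2.88%) with anti-PD-1 replicate 2. By rank over all sgRNAs it was about as close to tumour IgG replicate 2 (Spearman 0.60) as to tumour anti-PD-1 replicate 2 (0.62). Liver anti-PD-1 replicate 3 shared 37 leading sgRNAs (35.6%) with tumour anti-PD-1 replicate 3, while liver IgG replicate 3 shared 13 (12.5%) with tumour IgG replicate 3 and as many with tumour IgG replicate 1. The labels were kept, and the values of the leading genes are also given without liver IgG replicate 2, which for T0, the other organs and IgG alone was added after seeing the data.

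C1GALT1 is the Golgi enzyme that adds galactose to the first sugar of mucin-type O-glycans and so makes the core 1 structure on which most O-glycans of T cells are built. Its level was -0.01 in liver IgG replicate 2, 0.91 in IgG replicate 3 and 0.94 in anti-PD-1 replicate 3. In primary tumour it ranged from -2.35 to -1.36 with a median of -1.67, so that every liver library lay above every tumour library. The difference was 2.36 (SE 0.35, 95% interval 1.63 to 3.10), with limma adjusted p = 0.00811. This is 5.14-fold for signal + 1 relative to the nontargeting median of each library. Without centring on that median the difference was 1.65. All 5 sgRNAs had a higher mean in liver, by 1.16 to 3.41 on the log2 scale, and 3 of them did so without overlap between the libraries of the organs. All 5 sgRNAs were higher in liver for 4.28% of genes, and this is no separate evidence, since the test used their mean. Without the library labelled liver IgG replicate 2 the difference was 2.67 (adjusted p = 0.00353). Without liver anti-PD-1 replicate 3 the difference was 2.09 and the adjusted p 0.160, so *C1galt1* was then not called. Within matched pairs of the same number and treatment, the difference was 1.69, 2.49 and 2.80. With these pairs as a block the fit gave 2.33 and an adjusted p of 0.347, so that *C1galt1* was not called, and with the median of its sgRNAs in place of the mean it was 2.16 with an adjusted p of 0.0844.

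Its chaperone showed a difference at least as large in size but with a far wider spread in liver. *C1galt1c1* encodes COSMC, which is needed to fold C1GALT1. The level was -2.26 and -1.29 in the liver IgG libraries and 1.64 in liver anti-PD-1 replicate 3, against -3.75 to -2.44 (median -3.13) in tumour. Again no liver library overlapped the tumour libraries. The difference of 2.67 (SE 0.56) was the largest of all genes in that direction, and its adjusted p was 0.101. All 5 sgRNAs were higher in liver. Without the library labelled liver IgG replicate 2 the difference was 3.33 (adjusted p = 0.0290), and without tumour IgG replicate 3 it was 3.01 (adjusted p = 0.0415), so *C1galt1c1* was called in both cases. The value was 1.31 (SE 0.46, adjusted p = 0.365) under IgG and 4.85 (SE 0.59, adjusted p = 0.00131) under anti-PD-1, where liver has 1 library and its spread is assumed to be that of the other groups. Without liver IgG replicate 2, the difference under IgG was 1.80 (adjusted p = 0.0533), where the 1 liver IgG library left is assumed to vary like the other groups. The test of the difference between treatments, the organ-by-treatment interaction, gave 3.54 (SE 0.75) with an adjusted p of 0.237.

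Both knockouts were depleted in tumour relative to T0, and in liver neither was called different from T0. For *C1galt1*, T0 levels were 0.22 to 0.38, primary tumour was lower than T0 by 2.03 on the log2 scale (limma adjusted p = 3.95e-06), and liver differed from T0 by 0.34 (SE 0.34, adjusted p = 0.601). For *C1galt1c1*, T0 levels were -0.62 to -0.18, the tumour differed from T0 by -2.77 (adjusted p = 6.09e-07) and the liver by -0.25 (SE 0.88, adjusted p = 0.895). Without liver IgG replicate 2 the differences between liver and T0 were 0.65 for *C1galt1* (adjusted p = 0.0880) and 0.56 for *C1galt1c1* (adjusted p = 0.684). A p that misses the threshold does not show that liver and T0 were alike. These comparisons share the tumour and liver libraries with the main comparison. In tumour 433 genes (20.8%) and in liver 388 genes (18.7%) were called lower than T0.

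Both knockouts were also more abundant in liver than in spleen and lung. *C1galt1* levels were -5.55 to -0.53 in peritoneal metastases, where the lowest value is that of the library with spleen as its tissue label, -4.70 to -2.35 in spleen and -5.59 to -2.74 in lung. Liver was higher than lung by 4.59 (adjusted p = 0.00374) and than spleen by 3.95 (adjusted p = 0.00973), and by 2.86 than peritoneal metastases (adjusted p = 0.831). *C1galt1c1* was higher in liver than in lung by 5.55 (adjusted p = 0.00214) and than in spleen by 4.42 (adjusted p = 0.0360), and the difference to peritoneal metastases was 4.06 (adjusted p = 0.370). Without liver IgG replicate 2 the differences for *C1galt1* were 4.84 to lung (adjusted p = 0.0249), 4.26 to spleen (adjusted p = 0.0424) and 3.33 to metastases (adjusted p = 0.985). For *C1galt1c1* they were 6.27 (adjusted p = 0.00266), 4.95 (adjusted p = 0.0778) and 4.53 (adjusted p = 0.896), so that its call against spleen was lost. With all liver libraries, these were the only 2 genes called higher in liver than in lung (0.0962%) and likewise than in spleen (0.0962%), and 0 genes were called lower. In lung 10.5% to 42.6% of sgRNAs and in spleen 4.60% to 24.1% lay at a shared lowest value, more than in any tumour library. The draining and non-draining lymph nodes were not fitted, since 45.4% to 91.6% of their sgRNAs lay at a shared lowest value, and *C1galt1* levels there were -0.35 to 3.60 and -0.32 to 1.96. The fits against lung, spleen and metastases were made after the values had been seen and share the 3 liver libraries.

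**Figure D3:**
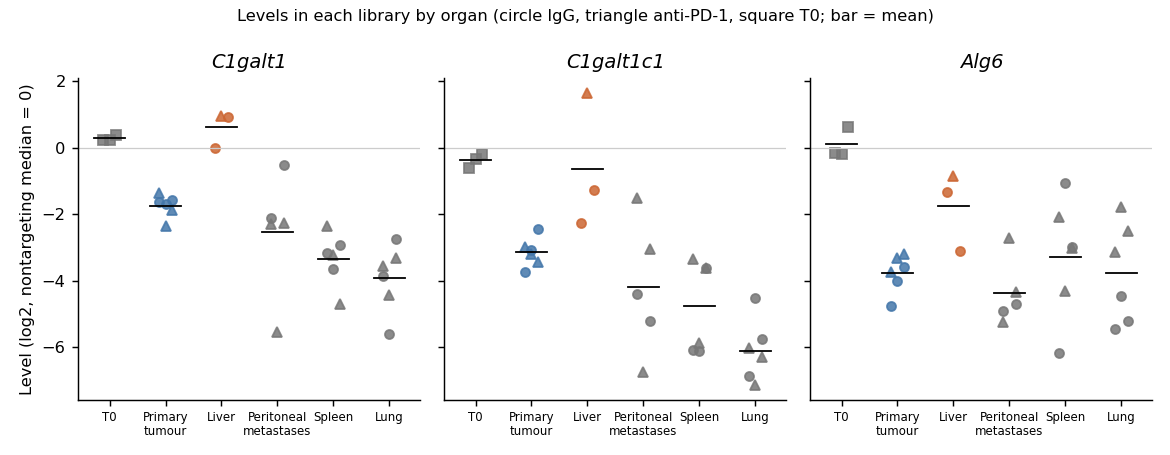
Levels of *C1galt1*, *C1galt1c1* and *Alg6* in every library of T0, primary tumour, liver, peritoneal metastases, spleen and lung (y axis, log2 with the nontargeting median at 0); each point is 1 library and the bar the mean of the organ. The 3 liver points lie above all primary tumour points in each panel, and near T0 for *C1galt1*.

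The other genes of mucin-type O-glycan synthesis did not share this pattern. Of 23 library genes of the pathway, a list drawn up after the values of *C1galt1* were seen, 11 were above 0 and 12 below, with a median of -0.01 against -0.02 for all genes. Apart from *C1galt1* and *C1galt1c1*, the differences ran down to -0.91 for *Galnt7*, which acts on sites that already carry a sugar (adjusted p = 0.514). Among 21 genes of sialic acid supply and transfer the median was 0.06. *St6galnac5*, a sialyltransferase best known from gangliosides, had levels of -0.97, -2.75 and -2.40 in liver and -1.10 to 0.21 (median -0.67) in tumour, a difference of -1.52 (adjusted p = 0.225). Of its sgRNAs, 1 gave -4.95 and the others -1.11 to -0.19. *Slc35a1*, the Golgi carrier of CMP-sialic acid, had low levels in both organs, at -4.53, -4.28 and -2.51 in liver and a median of -3.30 in tumour (difference -0.34, SE 0.53). That value averages opposite signs, -1.65 under IgG and 1.75 under anti-PD-1, where liver has 1 library.

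Among the genes of N-linked glycosylation, *Alg6* came nearest to being called. ALG6 adds the first glucose to the lipid-linked oligosaccharide that is later moved to proteins. The level was -1.32, -3.11 and -0.86 in liver and -4.77 to -3.20 (median -3.68) in tumour. The groups did not overlap, although liver IgG replicate 3 lay close to the highest tumour library. The difference was 2.16 (SE 0.41, adjusted p = 0.0745), 2 of the 5 sgRNAs carried most of it with differences of 3.90 and 4.45, and the other 3 gave 0.08 to 1.12. Leaving out the lowest 10% of sgRNAs gave a difference of 0.81 (adjusted p = 0.608), whereas without liver IgG replicate 3 it was 2.68 (adjusted p = 0.00216) and without tumour IgG replicate 3 it was 2.34 (adjusted p = 0.0415), so that *Alg6* was called in the last 2 cases. Without liver IgG replicate 2 it was 1.79 (adjusted p = 0.112). Of 30 genes of the dolichol pathway and the oligosaccharyltransferase, 15 were above 0 and 15 below (median 0.03), from *Ddost*, a transferase subunit, at -0.96 to *Alg6*. Of 26 genes of N-glycan trimming and branching, 2 were higher and 2 lower at an unadjusted p under 0.05, against 3.95% and 5.29% of all genes. *B4galt5*, a galactosyltransferase, gave -1.08 and *B3gnt2*, which starts poly-N-acetyllactosamine chains, gave 0.80 (adjusted p = 0.502). *B3gnt2* knockout cells stood above the nontargeting controls in both organs, at 2.33, 1.21 and 3.45 in liver and 1.25 to 2.22 (median 1.69) in tumour, and the ranges overlapped. The 21 genes of GPI anchor synthesis had a median difference of 0.11 and ran up to 0.85 for *Pigp*.

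**Figure D4:**
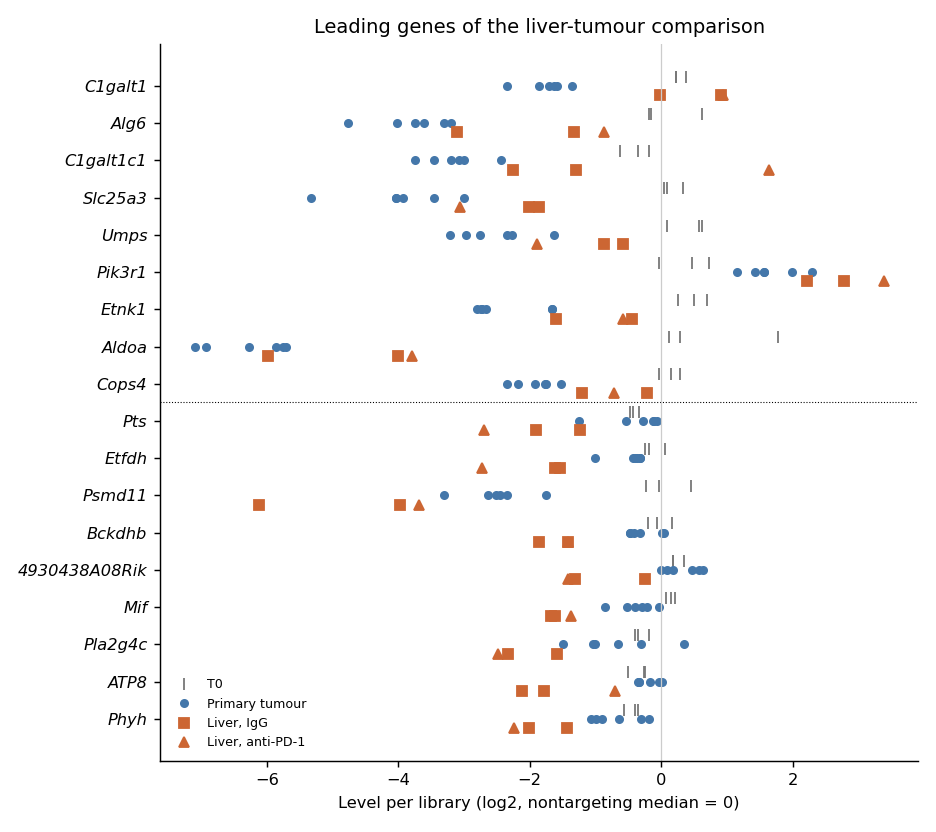
Level of each leading gene described here in every library (x axis, log2 with the nontargeting median at 0): ticks are T0 libraries, circles primary tumour libraries, squares liver IgG and triangles liver anti-PD-1. Above the dotted line are genes named as higher in liver and below it genes named as lower; among these only *C1galt1* passed the adjusted threshold.

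Further genes were named as higher in liver by the smallest unadjusted p, *Alg6* and *C1galt1c1* among them, and none of those passed the adjusted threshold. *Slc25a3*, the mitochondrial phosphate carrier, had -2.01, -1.86 and -3.06 against -5.34 to -3.004 (median -3.98), with anti-PD-1 replicate 3 inside the tumour range (difference 1.48, SE 0.37, adjusted p = 0.178). *Aldoa*, a glycolytic aldolase, was among the most depleted knockouts in both organs, at -4.01, -5.98 and -3.80 in liver and -7.10 to -5.71 in tumour (difference 1.74, SE 0.47, adjusted p = 0.196).

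*Umps* catalyses the last steps of de novo UMP synthesis. It had levels of -0.58, -0.87 and -1.88 in liver and -3.21 to -1.63 (median -2.56) in tumour, a difference of 1.26 (SE 0.31, adjusted p = 0.178). *Dhodh*, the enzyme just before it in the pathway and looked up after the value of *Umps* was seen, had -0.36, -1.19 and -1.88 against -3.82 to -1.90 (median -2.35), just without overlap, and a difference of 1.24 (adjusted p = 0.289). Over the 23 genes of pyrimidine and dNTP synthesis, 11 were above 0 and 12 below, and *Rrm1*, the large subunit of ribonucleotide reductase, was lowest at -0.78. *Etnk1*, which phosphorylates ethanolamine for phosphatidylethanolamine synthesis, had -1.59, -0.45 and -0.59 against -2.80 to -1.66 (median -2.70), without overlap (difference 1.52, adjusted p = 0.196).

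The 4 subunits of the COP9 signalosome, which removes NEDD8 from cullin ubiquitin ligases, all had positive differences, although without centring, which lowers the median of all genes to -0.73, *Cops6* and *Cops8* had -0.09 and -0.38. *Cops4* had levels of -1.20, -0.21 and -0.72 in liver and -2.34 to -1.52 (median -1.84) in tumour, and *Cops2* had -0.42, -0.28 and -0.18 against -2.08 to -1.07 (median -1.26). Neither overlapped between the organs, which in this direction held for 34 of all 2078 genes (1.64%). *Cops2* was picked out after its value was seen. Of all 2078 genes, 998 had a positive difference. The differences were 1.19 for *Cops4* (adjusted p = 0.225), 1.04 for *Cops2* (adjusted p = 0.270), 0.63 for *Cops6* (adjusted p = 0.634) and 0.33 for *Cops8* (adjusted p = 0.846), so 0 of 4 passed the test. The median difference of the 4 was 0.84, against -0.02 for all genes.

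Among the leading genes described as lower in liver, all 5 sgRNAs were lower for *Bckdhb*, *Psmd11*, *Etfdh*, *Phyh*, *Pts*, *Mif* and *ATP8*. This was the case for 3.85% of all genes. The leading genes were named by a small p on the mean of these same sgRNAs, so the contrast follows largely from the choice. *Bckdhb*, a subunit of the branched-chain ketoacid dehydrogenase, which breaks down branched-chain amino acids, had levels of -1.85, -1.42 and -1.42 in liver and -0.48 to 0.04 (median -0.37) in tumour, without overlap (difference -1.28, SE 0.31, adjusted p = 0.178). The matched pairs gave -1.53, -0.94 and -0.95.

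*Psmd11*, a lid subunit of the proteasome, had the largest negative difference of all genes, -2.07 (SE 0.48, adjusted p = 0.146), from levels of -3.97, -6.12 and -3.69 in liver and -3.31 to -1.76 (median -2.48) in tumour. The matched pairs gave -2.21, -3.60 and -0.38, and without liver IgG replicate 3 the difference was -1.33. The 10 proteasome genes were already strongly depleted, with a median level of -4.61 in tumour and -4.82 in liver. Their median difference was -0.36, 8 were below 0 and 0 passed the test, and *Psmc1*, an ATPase subunit of its base, lay at the other end with 1.19 (SE 0.79).

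Of the genes of lipid metabolism named as lower in liver, *Etfdh* passes electrons from fatty acid oxidation to ubiquinone. It had levels of -1.53, -1.62 and -2.72 in liver and -1.01 to -0.32 (median -0.39) in tumour, without overlap (difference -1.51, SE 0.35, adjusted p = 0.140). Of 30 genes of fatty acid oxidation, 23 were below 0 and 7 above, with a median of -0.18, where 1080 of all 2078 genes were below 0. At an unadjusted p under 0.05, which 5.29% of all genes reached as lower, 3 were lower, namely *Etfdh*, *Eci2* (-1.23) and *Cpt1a* (-0.99), which loads fatty acids onto carnitine. *Eci2* had levels of -0.99, -0.33 and -3.24 in liver, and without liver anti-PD-1 replicate 3 its difference was -0.33. None of the 30 was called. *Phyh*, which starts the breakdown of phytanic acid in peroxisomes, had -1.43, -2.02 and -2.23 against -1.06 to -0.19 (median -0.77) (difference -1.25, adjusted p = 0.196), and *Pla2g4c*, a cytosolic phospholipase A2, gave -1.49 (adjusted p = 0.196).

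*Pts* makes the precursor of tetrahydrobiopterin. Its level was -1.24, -1.90 and -2.70 in liver and -1.26 to -0.06 (median -0.20) in tumour, where 1 library reached the highest liver library (difference -1.63, SE 0.37, adjusted p = 0.135). *Mif*, a cytokine with tautomerase activity, was even across the liver libraries at -1.62, -1.67 and -1.38, below a tumour range of -0.86 to -0.03 (median -0.34) (difference -1.18, adjusted p = 0.196). *ATP8*, a subunit of ATP synthase encoded in mitochondrial DNA, and the unnamed gene *4930438A08Rik* completed the group with -1.27 and -1.36 (adjusted p = 0.196 and 0.178). The sgRNA with the largest difference gave -4.09 for *Pts*, -4.21 for *ATP8* and -4.89 for *4930438A08Rik*. For *ATP8*, another sgRNA gave -1.85 and the rest -0.20 to -0.19, so a minority of its sgRNAs carried the difference. Whether sgRNAs against this mitochondrial gene cut their target was not tested. For *4930438A08Rik*, 2 of the 5 sgRNAs were higher in liver. Among the 9 genes described as lower, 8 had all 3 liver libraries below all 6 tumour libraries, against 2.41% of all genes. These genes were named by their small p in the same libraries, so this count follows largely from the choice.

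Some knockouts stood above the nontargeting controls in both organs. *Pik3r1*, a regulatory subunit of PI3K, had levels of 2.79, 2.22 and 3.39 in liver and 1.15 to 2.29 (median 1.57) in tumour. Only the highest tumour library reached into the liver range. The difference was 1.24 (SE 0.32, adjusted p = 0.196), all 5 sgRNAs were higher in liver, and the matched pairs gave 1.22, 1.06 and 1.10. *Pik3cd*, the catalytic subunit that dominates in lymphocytes, had 3.11, 1.53 and 4.17 against 0.95 to 3.24 (median 2.08), with wide overlap (difference 1.02, SE 0.41, adjusted p = 0.398). The remaining 10 PI3K subunits lay between -0.54 for *Pik3c2g* and 0.51, and 0 of 12 were called. *Pi4kb*, a Golgi lipid kinase, gave -0.95, the lowest of 34 other phosphoinositide enzymes, of which 19 were above 0 and 15 below (median 0.08).

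*Elovl1*, which elongates saturated very long chain fatty acids, had levels of -0.11, 0.76 and 1.94 in liver and -0.76 to 1.02 (median -0.26) in tumour. The ranges overlapped, the difference was 1.17 (SE 0.42, 95% interval 0.29 to 2.05) and the adjusted p was 0.333. Under IgG, and so without liver anti-PD-1 replicate 3, the difference was 0.70. Under anti-PD-1, where liver has 1 library, it was 1.92, and a dependence on treatment was not shown. All 5 *Elovl1* sgRNAs had a higher mean in liver, as for 4.28% of all genes, and the matched pairs gave 0.21, 0.91 and 0.91. Of 25 genes of fatty acid synthesis, elongation and desaturation, 11 were above 0 and 14 below, with *Elovl2* lowest at -0.81. *Dgkz*, a diacylglycerol kinase, did not separate the organs, with 1.63, 1.20 and 0.65 in liver and 0.94 to 1.96 (median 1.31) in tumour (difference -0.21, 95% interval -0.96 to 0.53). The 10 diacylglycerol kinases had a median of -0.13 and reached down to -0.72 for *Dgkd*.

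Knockouts of genes that every dividing cell needs were depleted to a similar depth in both organs. The median level of 20 ribosomal protein genes was -5.40 in tumour and -5.61 in liver, against 0.21 in T0, and the median difference was 0.08. *Rpl9* had levels of -6.17, -7.19 and -6.07 in liver and -7.27 to -5.49 (median -6.49) in tumour, and *Rps24* gave the lowest difference of the list at -1.13 (adjusted p = 0.333). Of 26 RNA polymerase subunits, 10 were above 0 and 16 below, and the median level was -4.67 in tumour and -4.54 in liver. *Polr1d*, shared by RNA polymerases I and III, had -4.96, -5.87 and -6.71 in liver and -6.36 to -3.83 (median -4.95) in tumour (difference -1.23, SE 0.39, adjusted p = 0.289), and *Polr3b* gave 1.04, or 0.12 without liver anti-PD-1 replicate 3. Purine synthesis (21 genes, median difference 0.04), heme synthesis (9 genes, -0.22), the pentose phosphate pathway (11 genes, 0.10) and the vacuolar proton ATPase (23 genes, -0.18) were likewise depleted in both organs, with 0 genes called. In the last of these, *Atp6ap1*, an accessory subunit, lay lower in all 3 liver libraries, at -5.12, -6.08 and -4.68 against -4.66 to -3.32 (median -4.10) in tumour (difference -1.22, adjusted p = 0.270), but leaving out the lowest 10% of sgRNAs gave 0.56. The small lists of cytosolic (2 genes, median 0.51) and mitochondrial (2 genes, median -0.48) aminoacyl-tRNA synthetases had 0 genes called. On the log2(signal + 1) scale, differences between such low values can be understated. They can also be shifted, since a signal of 0 reads as minus the nontargeting median of its library. On the log2 scale that median was 6.88 to 7.19 in liver and 7.25 to 7.99 in tumour. A lost sgRNA can therefore read higher in liver than in tumour.

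**Figure D5:**
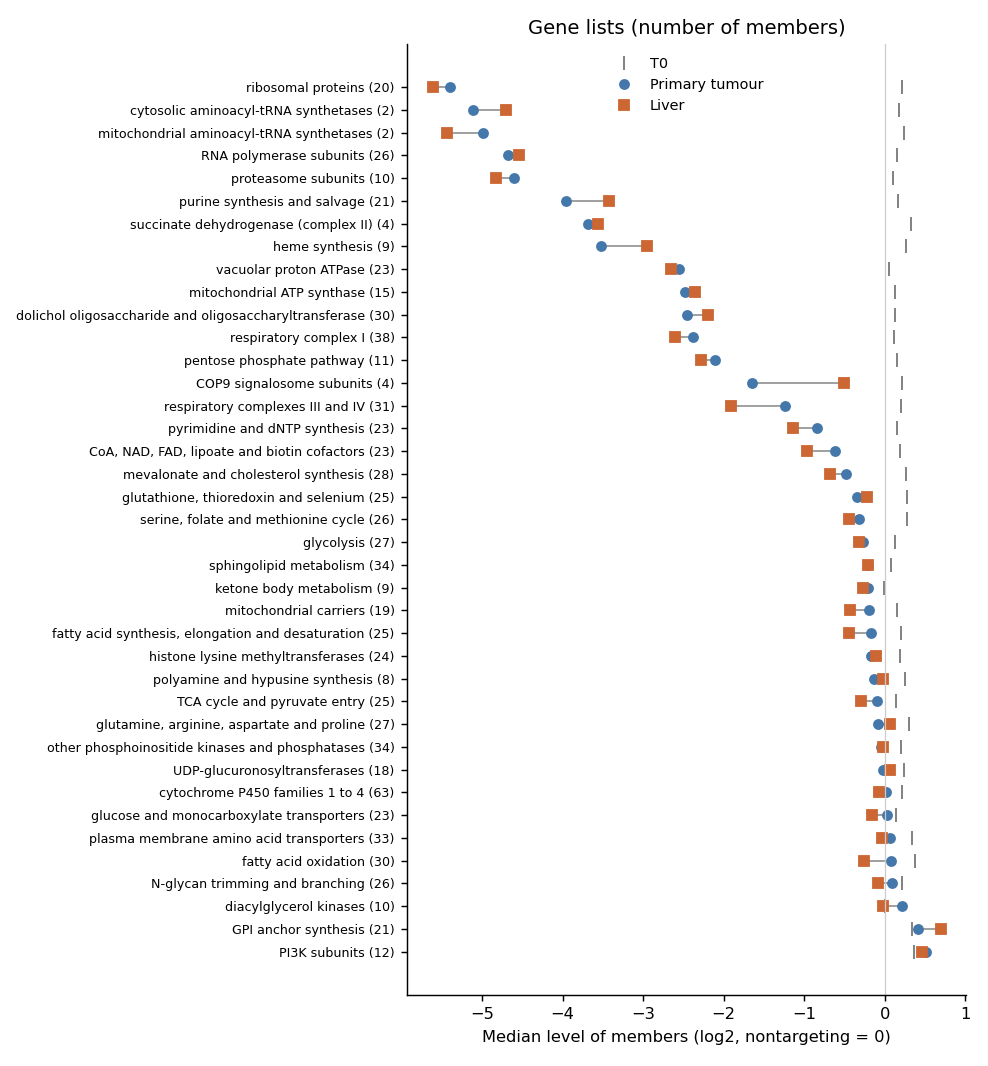
Median level of the member genes of each of 39 gene lists (x axis, log2 with the nontargeting median at 0) in T0 (tick), primary tumour (circle) and liver (square); the number of members stands in brackets. Primary tumour and liver lie close together for most lists, from ribosomal proteins at the top to PI3K subunits at the bottom, and the 4 COP9 signalosome genes show the widest gap.

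Respiratory chain knockouts were depleted in both organs and differed from gene to gene. Complex I (38 genes) had a median difference of -0.02, with 4 genes higher and 1 lower at an unadjusted p under 0.05 (3.95% and 5.29% of all genes), from *Ndufb10* at -1.04 to *Ndufa2* at 1.19. For *Ndufa2*, 1 sgRNA gave 5.11 and 2 of the 5 sgRNAs were lower in liver. Complexes III and IV (31 genes) had a median of -0.20, with 19 genes below 0 and *Cox6a1* lowest at -0.94. The median level of the latter list was -1.84 to -1.74 in the 3 liver libraries and -1.26 to -0.84 in the 6 tumour libraries, without overlap, and 0 of its genes were called. This gap is larger than the median difference of its genes, -0.20. The COP9 signalosome list also separated by this measure, in the other direction. The 4 genes of complex II ran from *Sdha* at -1.38 (adjusted p = 0.382) to *Sdhb* at 0.72. ATP synthase (15 genes) ran from *Atp5c1* at -0.89 to *Atp5a1* at 1.38 (adjusted p = 0.321). The TCA cycle (25 genes, 12 above 0 and 13 below) had *Idh3b* at its lower end with -0.69. Glycolysis (27 genes, median 0.10) ran from *Tpi1*, triose phosphate isomerase, at -1.07 to *Aldoa*. The mitochondrial carriers (19 genes) had *Slc25a3* at their upper end, and 14 of them were below 0.

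The other lists of metabolism had 0 genes called. For serine, folate and methionine metabolism (26 genes) the median was 0.09 and the highest gene was *Ahcy*, which clears S-adenosylhomocysteine, at 0.95, or 0.23 without liver IgG replicate 2. Polyamine synthesis (8 genes) had a median of 0.08, and glutathione, thioredoxin and selenium genes (25) had 0.07, with *Gpx4*, which reduces lipid peroxides, at 0.74 and *Sepsecs*, which makes selenocysteine on its tRNA, at -0.94. Mevalonate and cholesterol synthesis (28 genes) had 0.06 and ran up to *Msmo1* at 1.001. Sphingolipid metabolism (34 genes) had -0.06, with *Ugcg*, which makes glucosylceramide, lowest at -1.06. Ketone body metabolism (9 genes) had 0.14 and *Acat1* at its lower end with -0.92. The cofactor genes (23) had -0.18, with 17 below 0, while *Nampt*, which salvages nicotinamide for NAD synthesis, was highest at 1.04. Glutamine, arginine, aspartate and proline genes (27) had 0.06, with 3 lower at an unadjusted p under 0.05 (5.29% of all genes), among them the mitochondrial arginase *Arg2* at -1.18 (adjusted p = 0.333). Plasma membrane amino acid transporters (33 genes) had 0.10 and ran from *Slc3a2*, the heavy chain shared by several transporters, at -0.72 to *Slc38a2* at 0.71. Glucose and monocarboxylate transporters (23 genes) had -0.12 and *Slc5a12* highest at 0.90, and histone lysine methyltransferases (24 genes) had 0.08 with *Setd1b* highest at 1.09.

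Genes known mainly from hepatocytes served as a comparison, since T cells are not known to depend on them. The 63 P450 genes of families 1 to 4 had a median difference of -0.03 and ran from *Cyp2d9* at -1.19 to *Cyp2e1* at 0.75. For *Cyp2d9* the liver libraries, at -1.45, -1.001 and -0.86, lay below all tumour libraries (-0.29 to 0.59, median -0.08), and the adjusted p was 0.225. Liver lay below all tumour libraries for 2.41% of all genes. Of the *Cyp2d9* sgRNAs, 1 gave -4.09 and the others -1.12 to 0.12. *Cyp2e1* had 1.76, 0.48 and 0.57 in liver and 0.07 to 0.21 in tumour. The 18 UDP-glucuronosyltransferases had a median of 0.04, with *Ugt1a9* lowest at -0.81. In both lists 0 genes were called.

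The liver-tumour difference was not shown to depend on anti-PD-1 for any gene. The interaction of organ and treatment called 0 of 2078 genes (0%) by limma, and 185 (8.90%) had an unadjusted p under 0.05. *Slc35a1* and *C1galt1c1* had the lowest adjusted p, both 0.237. Within anti-PD-1 alone, where liver has 1 library, 1 gene was called, *C1galt1c1*, and within IgG alone 0 were called, with 67 genes higher and 154 lower at an unadjusted p under 0.05. For *C1galt1* the difference was 2.09 (SE 0.43) under IgG, or 2.55 (adjusted p = 0.00804) without liver IgG replicate 2, and 2.80 (SE 0.55) under anti-PD-1, with an interaction of 0.71 (SE 0.70, adjusted p = 0.827). Without the library labelled liver IgG replicate 2, which leaves 1 liver library in each treatment, the interaction was called for 46 genes.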

How the data were processed

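Genomic DNA of sorted CD90.1+ T cells was amplified at the sgRNA. Per the labels and methods, the authors counted sgRNAs with MAGeCK-VISPR, normalized to the 250 nontargeting sgRNAs and corrected batches between organs with ComBat (settings not given in the sources used here), and deposited 1 signal per sgRNA and library. The signal is no longer whole counts, so no count test was run. Depth is unknown, and no interval for counting error is given. Lowest values were counted as equal at a relative tolerance of 1e-09.

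limma 3.58.1 in R 4.3.3 was fitted to 9 libraries (6 residual degrees of freedom, prior 10.2) with organ and treatment as terms. Comparisons with T0 used organ alone. Interaction and within-treatment values came from group means. Evenness measures were compared by exact permutation. The fit was tested on simulated data. Figures were drawn with matplotlib 3.10.9. Of 2078 gene symbols, 2072 matched RefSeq's table, 33 by a synonym. No build is named, so no coordinates are given, and sgRNA sequences were not used here.

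The genes compared and the lists were chosen with earlier results of these data known. Named are, in each direction, the called genes filled up to 10 by the smallest unadjusted p; *Elovl1*, *Pik3cd*, *Pik3r1*, *Dgkz*, *B3gnt2*, *Rpl9* and *Polr1d*; and most of the highest and lowest genes of each list. Some genes that these rules name are not reported here. The genes of mucin-type O-glycan synthesis and sialic acid transfer, with *Dhodh*, *Cops2*, *Cops6*, *Cpt1a*, *Eci2* and *Slc35a1*, were added after their values were seen.

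Libraries of the same number and treatment deviated together from the means of their organs (gene level r = 0.11, 0.29 and 0.35; sgRNA level 0.09, 0.26 and 0.36), so the pairs were also fitted as a block. For liver IgG replicate 2 this was not particular to its pair, since with tumour anti-PD-1 replicate 2 r was 0.07 (gene level) and 0.13 (sgRNA level). Nothing in the labels says that paired libraries come from the same animals, and p-values measure only the spread between the libraries compared. Alternatives were log2(signal + 10), the median of sgRNAs, 4 other scalings or filters, shared lowest values set to 0, library weights, other priors, other sets of libraries and each library left out.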

Additional observations from a re-analysis of the deposited data

Results flagged for a closer look

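Among the 6 primary tumour libraries, 1 library lay far from the other 5 for 6 of 72 values tested, where chance flags about 1 in 20. These were tumour anti-PD-1 replicate 2 for *Ddost* (level -3.72) and *Pigp* (1.57), anti-PD-1 replicate 3 for *B4galt5* (-3.90) and *Elovl1* (1.02), IgG replicate 1 for *Etfdh* (-1.01) and IgG replicate 3 for *Cpt1a* (1.89). The 3 liver libraries are too few for the same comparison.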

How the results depend on the processing

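Over 25 alternatives the *C1galt1* difference was 1.65 to 2.67 and it was called in 18. It was not called with the median of sgRNAs, replicates 2 and 3 only (2.47, adjusted p = 0.0644), the same libraries with the number as a block (2.36, 0.0978), IgG libraries only (2.09, 0.464), all libraries of the 7 organs (2.39), without liver anti-PD-1 replicate 3 or with pairs of number and treatment as a replicate block (2.33, 0.347), an alternative chosen after seeing the data; blocked by number alone it was 2.38 (0.0381). Genes higher in liver numbered 3 with log2(signal + 10), 2 with the median of sgRNAs, 3 without centring, 2 with the nontargeting mean, and 0 for replicates 2 and 3 with or without the block, IgG only, all organs and the pair block. Genes lower numbered 1 with the median and 302 without centring. Leaving out each library gave 0 to 4 higher (0 without liver anti-PD-1 replicate 3, 2 without liver IgG replicate 2, 4 without liver IgG replicate 3, 3 without tumour IgG replicate 3) and 0 to 2 lower (2 without liver IgG replicate 3). The interaction was called for 3 genes with the lowest 10% of sgRNAs left out and for 0 to 46 with each library left out. Differences in the share at a shared lowest value and in nontargeting SD were 2.42 and 0.51 for replicates 2 and 3 (exact permutation p = 0.0571), 3.10 and 0.58 for IgG (p = 0.200), and 2.58 and 0.52 for pairs (p = 0.250), designs that allow no smaller p; with each library left out they were 2.43 to 2.88 and 0.51 to 0.57. None of these reversed. Reversed, with none called, were *Slc35a1* (0.13), *Rrm1* (0.21), *Rpl9* (0.45) and *Ugcg* (0.060) with log2(signal + 10); *Slc35a1* (0.56), *Atp6ap1* (0.56), *Ndufb10* (0.0018) and *Sdhb* (-0.47) with the lowest 10% left out; *Cops6* (-0.086), *Cops8* (-0.38) and *Slc38a2* (-0.0024) without centring; and *Cops8* (-0.27), *Psmc1* (-0.30) and *Dgkz* (0.16) with IgG only. With each library left out, *Slc35a1* ranged from -1.65 to 0.12 (above 0 without liver IgG replicate 2), *Rpl9* from -0.90 to 0.27 (above 0 without liver IgG replicate 3), and *Cops8* from -0.27 to 0.84, *Psmc1* from -0.30 to 2.41 and *Dgkz* from -0.43 to 0.16 (turned without liver anti-PD-1 replicate 3). Leaving out 1 library moved the difference by over 1.5 times or turned it for 37 of 69 named genes, *C1galt1* not among them. The cause was not tested.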
